A study of Rattus norvegicus with 21 samples.

Results

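The comparison described here set the early tumours of a rat model of bile duct cancer against the liver of the same animals, 10 days after the tumour cells were inoculated. The arrays were chosen by their labels: the 3 tumour arrays and the 3 arrays of normal right liver lobe of day 10, from rats 1, 2 and 3, which are 6 of the 21 arrays of the study. The other arrays hold tumour and liver of 3 further rats each at days 15 and 25, and a metastasis from each rat of day 25. All animals were male, young adult Fischer 344 rats, inoculated at the same time. The tumours are labelled as intrahepatic cholangiocarcinoma grown from BDEneu cells, a line of rat cholangiocytes transformed with an activated form of the receptor gene neu (Erbb2). All tumours therefore came from 1 cell line, and the replicates are different host rats. The liver samples are normal only in the sense of being a lobe that was sampled apart from the tumour; they came from tumour-bearing animals, and no liver of a rat without a tumour was analysed here.

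Cholangiocytes line the bile ducts, carry keratins 7 and 19, and share a common embryonic precursor with hepatocytes, which make plasma proteins, bile acids, urea and glucose. Cholangiocarcinoma is known for a dense connective tissue stroma, in which activated fibroblasts deposit collagen and matricellular proteins and in which macrophages collect. A piece of such a tumour in the liver can hold cancer cells, stroma, blood cells and hepatocytes at its edge.

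Values are log2 expression levels of the deposited table, made by the authors with robust multi-array averaging (RMA). A difference of 1 on this scale is a 2-fold difference, and differences are given as tumour minus liver with the standard error (SE) of the fit. A gene was called where limma gave an adjusted p under 0.05 over 14218 genes. Array medians lay between 5.98 and 6.06, and a level under these may be background. Where 3 values are given for a tissue, they are those of rats 1, 2 and 3 in that order. In these bulk tissues, a lower number of cells of a type and less RNA per cell cannot be told apart.

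The 2 tissues differed in most genes. Of 14218 genes, 8306 were called (58.4% of those tested), 4318 higher (30.4%) and 3988 lower (28.0%) in the tumours. At a difference of at least 2-fold, 2071 genes were higher (14.6%) and 1096 lower (7.71%). The 3 tumours and 3 livers did not overlap in 10426 genes (73.3%), with all tumours above all livers in 36.8% and below in 36.5%. Of the called genes, 52.0% were higher in the tumours. This share was 29.2% when each array was centred on the median of all genes tested. That centring moved the median difference of all genes from -0.03 to -0.34. Calls of at least 2-fold ran more often upwards. By at least 2 on the log2 scale 657 genes were higher and 398 lower, 239 were higher and 52 lower by at least 3, and 83 were higher and 1 lower by at least 4. For 42.8% of the genes higher by at least 2, the liver mean lay under the lowest array median, so that the size of those differences rests on a level that may be background. The same held for the tumour mean of 14.8% of the genes lower by at least 2.

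**Figure D1:**
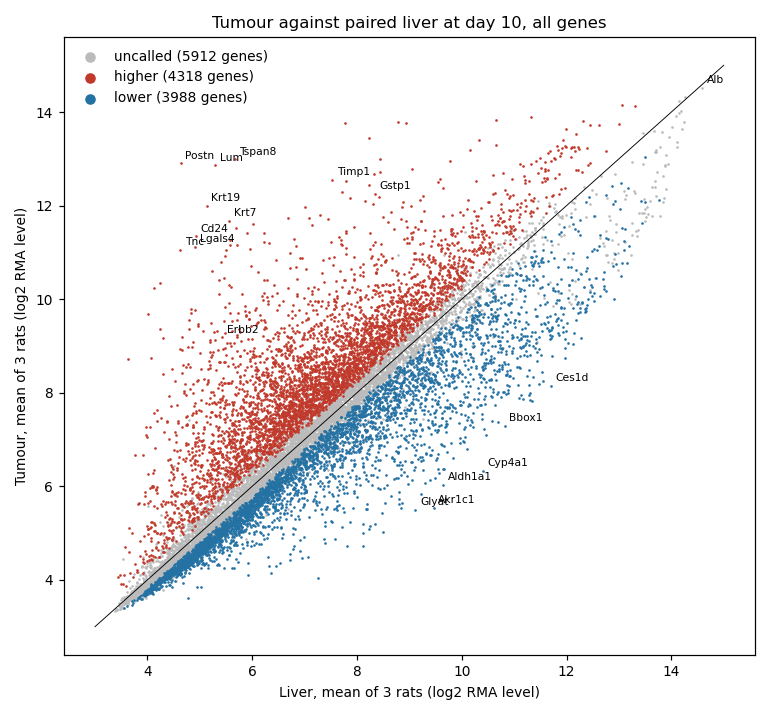
Each point is 1 of 14218 genes, with its mean level in 3 livers (x axis) and 3 tumours (y axis) of day 10, both as log2 RMA levels; red and blue mark genes called higher (4318) and lower (3988) in the tumours, grey the uncalled genes, and the line marks equal levels. Postn, Lum and Tspan8 lie farthest above the line, and the largest decreases lie closer to it, with Alb on the line at the upper end of the scale.

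The differences of the 3 rats resembled each other. The difference had the same sign in all 3 rats for 11514 genes (81.0%). The correlation of the per-gene difference between pairs of rats ran from 0.948 to 0.954 across genes, which are not independent replicates. The median SD of a gene was 0.110 among the tumours and 0.123 among the livers. The tumour of rat 2 stood apart from the others: 209 genes differed at least 2-fold from the mean of the other tumours, against 38 for the tumour of rat 1 and 27 for that of rat 3. For the livers these counts were 67, 51 and 47. Without the tumour of rat 2, 6916 genes were called, 3698 higher and 3218 lower.

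Erbb2, the gene whose activated form transformed the cell line, measured 9.07, 9.55 and 8.93 in the tumours and 5.61, 5.27 and 5.39 in the livers. All tumours lay above all livers, and the difference was 3.76 (SE 0.37) (limma adjusted p = 5.2e-07). Krt19, the keratin that marks cholangiocytes, measured 12.01, 12.27 and 11.70 in the tumours and 5.10, 5.42 and 4.86 in the livers, a difference of 6.86 (SE 0.45, adjusted p = 4.9e-09). The livers lay under the lowest array median in both Erbb2 and Krt19, so the sizes of these differences rest on levels that may be background. Alb, the albumin gene of hepatocytes, measured 14.56, 14.45 and 14.53 in the tumours and 14.57, 14.59 and 14.60 in the livers. That difference was -0.07 (SE 0.52) and was not called (adjusted p = 0.91); a second probe set of Alb differed by -0.17. The level of Alb lay near the upper end of the values, 14.62, where differences are compressed.

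Among the largest increases were genes of the bile duct surface and of the stroma. Postn, periostin, a matricellular protein secreted by activated fibroblasts, had the largest measured difference. Its levels were 12.65, 12.98 and 13.08 in the tumours and 4.08, 5.31 and 4.52 in the livers, and the difference was 8.26 (SE 0.60, adjusted p = 1.6e-08). All livers lay under the lowest array median, so its size and rank rest on levels that may be background. Lum, lumican, a proteoglycan that binds collagen fibrils, measured 12.84, 12.88 and 12.85 in the tumours and 4.12, 7.52 and 4.26 in the livers. The livers did not agree on Lum: that of rat 2 lay more than 3 log2 units above the others, and the difference was 7.56 (SE 0.84). Tspan8, a tetraspanin of epithelial cells, measured 12.95, 13.17 and 12.84 in the tumours and 5.67, 6.04 and 5.29 in the livers. The arrays of each tissue lay close together, and Tspan8 differed by 7.33 (SE 0.36). In Tspan8, as in Lum, all livers but that of rat 2 lay under the lowest array median. The sizes of both differences rest in part on levels that may be background.

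The largest increases also held Tnc (6.43), the matricellular protein tenascin C, and Cd24 (6.43), a surface protein of epithelial progenitors. Lgals4 (6.21), an epithelial galectin, Krt7 (6.11), the other duct keratin, and Mfap5 (6.11), a protein of elastic microfibrils, followed. Gabrp (6.09), a subunit of GABA receptors, Col1a1 (6.00) and Lamb3 (5.82), a chain of laminin-332, completed the 12. These 12 were chosen as called genes without overlap between the groups. When only genes above 6.02 in both tissue means were ranked, Lox (5.59), the enzyme that cross-links collagen, S100a11 (5.21), Pmepa1 (5.19), a TGF-beta target, Spp1 (5.05), osteopontin, and Timp1 (5.02) followed Col1a1. Lox passed this limit only through the liver of rat 2: its other livers lay under the lowest array median, as did 1 liver of Pmepa1.

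The largest decreases were hepatocyte enzymes and transporters. Cyp4a1, an omega-hydroxylase of fatty acids, had the largest. It measured 7.19, 5.26 and 6.54 in the tumours and 10.71, 10.16 and 10.34 in the livers, a difference of -4.07 (SE 0.81) or 16.8-fold lower (adjusted p = 0.00048). Akr1c1, an aldo-keto reductase, measured 5.75, 4.81 and 6.07 in the tumours and 9.04, 9.78 and 9.57 in the livers, a difference of -3.92 (SE 0.58). In both genes the tumour of rat 2 was the lowest of the tumours. Next came Aldh1a1 (-3.61), a retinaldehyde dehydrogenase, Glyat (-3.61), which conjugates glycine, Ces1d (-3.55), a carboxylesterase, and Bbox1 (-3.53), which makes carnitine. Dhrs7l1 (-3.52), Slc13a4 (-3.47), a sulfate transporter, Mettl7b (-3.45), Slc17a3 (-3.40), Poteml2 (-3.39) and Aadac (-3.36), an arylacetamide deacetylase, completed the 12. They were chosen by the same rule.

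**Figure D2:**
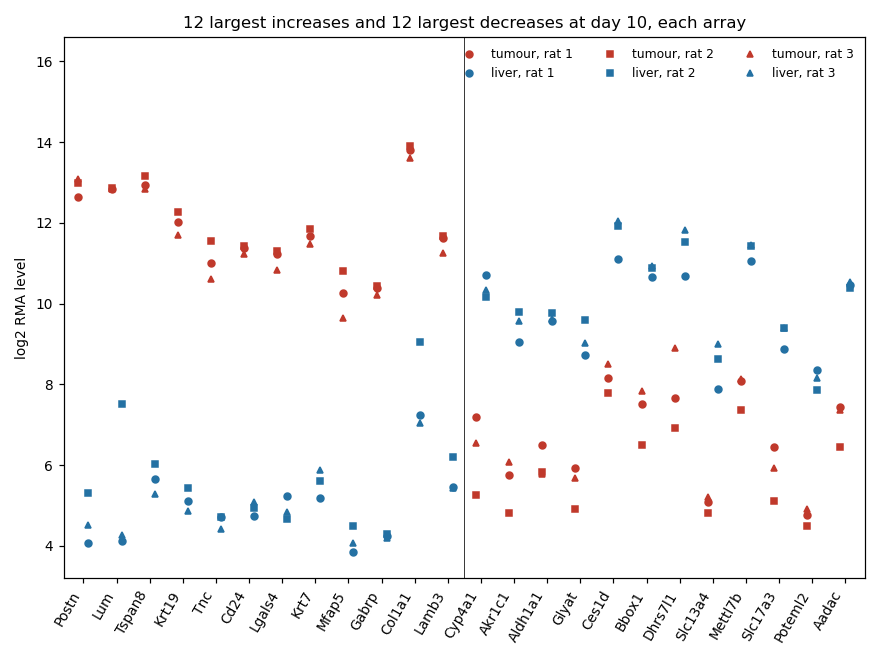
Log2 RMA levels of the 12 genes with the largest increase and the 12 with the largest decrease among called genes, in each of the 6 day 10 arrays; red marks tumours, blue livers, and the marker shape marks the rat. Only genes without overlap were chosen, so the tumours lie above the livers in every gene on the left and below them on the right. The liver of rat 2 stands above the other livers in Lum and Col1a1.

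To see which functions these genes belong to, 57 gene lists were counted, and 819 of 912 list entries were measured. The counts are read against the 30.4% of all genes called higher and 28.0% called lower, and against a median difference of all genes of -0.03. Genes of 1 list share cells and regulators and are not replicates of each other. The lists of keratins and surface proteins of bile ducts, of collagens and of matricellular proteins had the highest medians, and lists of hepatocyte metabolism the lowest.

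**Figure D3:**
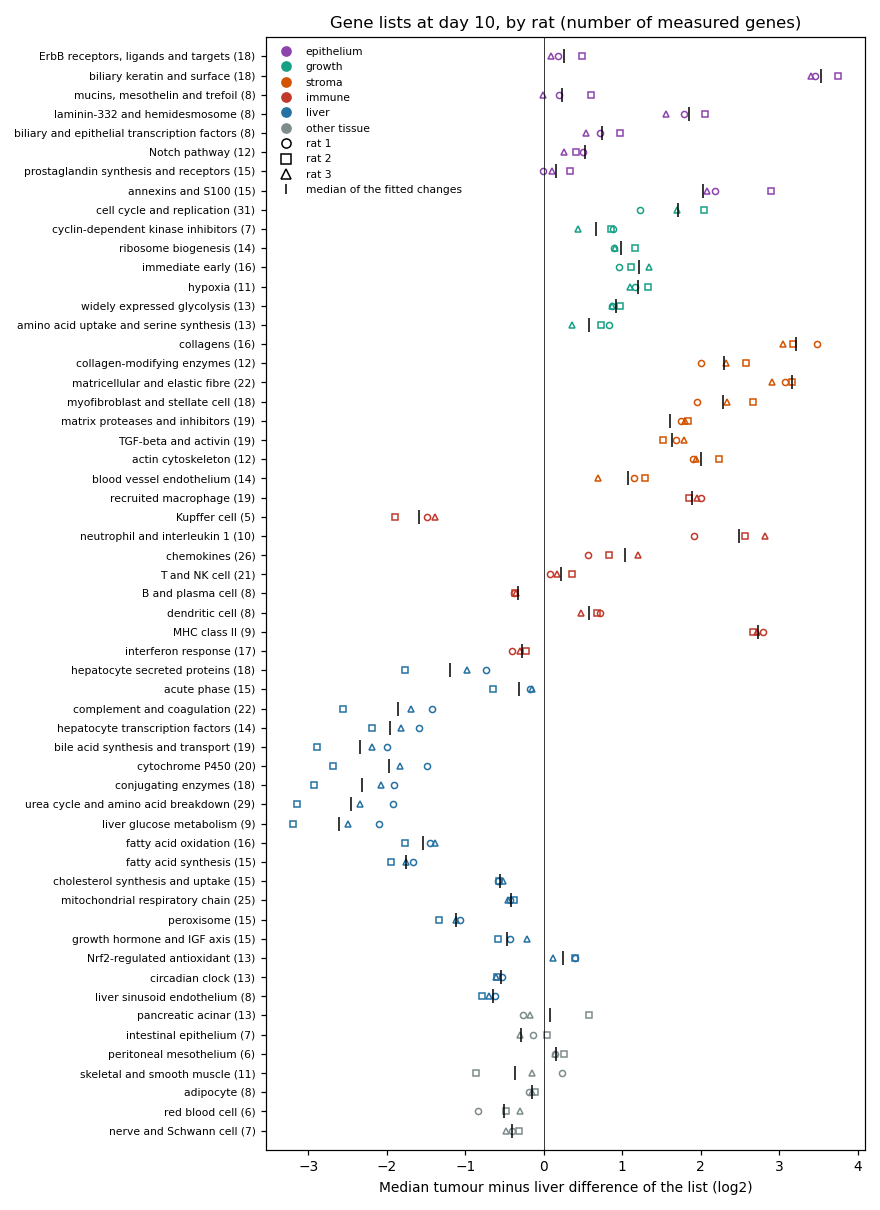
Median tumour minus liver difference (log2) of each gene list, with open symbols for the 3 rats, coloured by compartment, and a bar for the median of the fitted changes; the number of measured genes stands beside each name. Lists of epithelium, stroma and macrophages lie mostly to the right of 0 and liver lists to the left, and in the complement and coagulation list rat 2 lies farthest left, at -2.56 against -1.43 and -1.70.

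Of 18 keratin and surface genes of bile duct epithelium, 13 were higher and none lower, with a median of 3.54. Besides those named above, they included Epcam, an adhesion molecule of epithelia, at 11.81, 11.85 and 11.56 in the tumours and 6.74, 7.28 and 7.23 in the livers (4.66, SE 0.43). Krt18, a keratin that hepatocytes share with duct cells, was not called at 0.55 (SE 0.27), adjusted p = 0.09. It was called in a fit of the 6 day 10 arrays alone (adjusted p = 0.025). The median of 8 genes of mucins, mesothelin and trefoil factors, 0.24, turned to -0.07 when arrays were centred on all genes tested. Of the 8 genes, 2 were higher. They were Msln (3.63, SE 0.58), mesothelin, and Muc1 (3.48, SE 0.26), a membrane mucin; both kept their calls in every alternative tried. Tff3 measured 7.11, 7.64 and 6.65 in the tumours and 6.99, 6.78 and 6.75 in the livers and overlapped between the tissues.

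Laminin-332 and its receptor, integrin alpha 6 beta 4, hold epithelial cells to the basement membrane. In this list 6 of 8 genes were higher and none lower, with a median of 1.85. Lama3 (3.57, SE 0.26), Itgb4 (2.26, SE 0.28) and Itga6 (2.09, SE 0.25) accompanied Lamb3, whose levels were 11.62, 11.68 and 11.27 in the tumours and 5.46, 6.20 and 5.44 in the livers. Other probe sets of Itga6 ran from -0.23 to 1.96. Of the annexins and S100 proteins, which bind calcium and membranes, 12 of 15 were higher and none lower, with a median of 2.03. S100a11 measured 13.49, 13.52 and 13.33 in the tumours and 8.39, 8.40 and 7.91 in the livers, and S100a6 (4.95, SE 0.31), Anxa1 (4.74, SE 0.31) and Anxa2 (4.57, SE 0.33) were of like size, although a second probe set of Anxa2 differed by only 0.15.

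The ErbB list holds the 4 receptors, their ligands and targets. Of its 18 genes, 8 were higher and 5 lower. The median of the list, 0.26, turned to -0.05 when arrays were centred on all genes tested. Among the receptors only Erbb2 was higher, whereas Egfr (-1.84), Erbb3 (-1.17) and Erbb4 (-0.35) were called lower. Among the ligands, Hbegf was higher at 7.73, 7.85 and 7.33 in the tumours and 4.92, 4.98 and 5.04 in the livers (2.66, SE 0.23). Egf, by contrast, measured 5.71, 5.29 and 5.26 in the tumours and 7.82, 8.41 and 9.22 in the livers, a difference of -3.06 (SE 0.50), with all livers above all tumours. Etv4, a transcription factor induced by this pathway, measured 7.64, 7.74 and 6.83 in the tumours and 4.10, 4.18 and 4.26 in the livers, higher by 3.22 (SE 0.52). The feedback inhibitor Spry4 measured 7.51, 7.88 and 7.61 in the tumours and 7.60, 7.73 and 7.43 in the livers and overlapped between the tissues (0.08, SE 0.15).

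Of 8 transcription factors of duct and other epithelia, 5 were higher and 2 lower, with a median of 0.75. Klf5 (4.87, SE 0.39), Sox4 (4.74, SE 0.25) and Elf3 (2.24, SE 0.20) were higher. Onecut1 (-2.40), whose arrays overlapped between the tissues, and Foxa1 (-1.67) were lower. Other probe sets of Klf5 ran from -0.01 to 3.65 and those of Sox4 from -0.09 to 2.96. Hes1, a Notch target counted in this list, was not called, at 9.40, 8.98 and 9.09 in the tumours and 9.07, 8.75 and 8.88 in the livers. The median stayed above 0 with arrays centred on all genes tested, where 3 genes were higher. Without the tumour of rat 1, the tumour of rat 3 or the liver of rat 2, 1 gene was lower. Among 12 genes of the Notch pathway, which directs bile duct formation, 7 were higher and 3 lower. Without the tumour of rat 2 or the liver of rat 1, 4 were higher. Jag1, its ligand, had the largest difference, 2.19 (SE 0.29), at 7.74, 7.87 and 7.64 in the tumours and 5.43, 6.13 and 5.10 in the livers. Notch2, its receptor in bile duct formation, was lower, at -0.77 (SE 0.13).

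Cell division genes were higher in the tumours. Of 31 genes of the cell cycle and DNA replication, 26 were higher and none lower, with a median of 1.71. Mcm6, a subunit of the replicative helicase, measured 9.05, 8.97 and 8.67 in the tumours and 5.74, 5.81 and 6.35 in the livers, a difference of 2.93 (SE 0.47). Bub1, a kinase of the spindle checkpoint, measured 8.17, 8.33 and 8.14 in the tumours and 6.44, 5.30 and 4.89 in the livers (2.67, SE 0.55). Ccna2, cyclin A2, measured 9.37, 9.30 and 9.16 in the tumours and 8.15, 5.90 and 6.43 in the livers (2.45, SE 0.71). In Bub1 and Ccna2 the liver of rat 1 lay well above the other livers, and over the whole list its mean level was 7.11 against 6.42 and 6.51 in the other livers and 8.13 to 8.46 in the tumours. Of 7 inhibitors of cyclin-dependent kinases, 4 were higher. Cdkn2a measured 8.26, 8.73 and 7.78 in the tumours and 4.46, 4.70 and 4.42 in the livers, a difference of 3.73 (SE 0.23). Of 14 genes of ribosome biogenesis, 13 were higher, among them Nop58 (2.27, SE 0.19), Nolc1 (2.09, SE 0.23, with other probe sets from -0.22 to 0.89) and Fbl (1.88, SE 0.14), with a median of 0.99.

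Promoters of a few genes that moved are shown here and beside their genes because they hold short motifs of factors known for the cell cycle, the hepatocyte and activated stroma. Sequences come from the RefSeq promoter table of assembly GRCr8, which held 11701 of the measured genes, matched by gene identifier. Each runs 5′ to 3′ over the 250 bases before the annotated start. Capitals mark the motifs named beside each pair, searched on both strands. Genes shown here outside the naming rule (Cdk1, Top2a and Slc10a1) were chosen after their values were seen. A match is a description and not a site or a cause.

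Cdk1, the mitotic kinase, measured 9.50, 9.53 and 9.26 in the tumours and 8.66, 6.89 and 7.30 in the livers (1.81, SE 0.62), and Top2a, topoisomerase II alpha, measured 9.45, 9.39 and 9.05 in the tumours and 8.12, 6.78 and 7.35 in the livers (1.88, SE 0.40). The NF-Y motif CCAAT, the E2F motif TTTNGCGC and the CHR motif TTTGAA, whose matches do not overlap in these promoters, are in capitals. Cdk1 lies at chr20:19265043-19265292 on the plus strand and Top2a at chr10:84473094-84473343 on the minus strand.
Cdk1: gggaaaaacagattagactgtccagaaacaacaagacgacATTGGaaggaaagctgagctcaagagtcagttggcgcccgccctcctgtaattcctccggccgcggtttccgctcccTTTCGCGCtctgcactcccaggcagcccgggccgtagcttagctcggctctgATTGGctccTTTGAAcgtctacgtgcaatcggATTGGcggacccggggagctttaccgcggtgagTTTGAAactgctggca
Top2a: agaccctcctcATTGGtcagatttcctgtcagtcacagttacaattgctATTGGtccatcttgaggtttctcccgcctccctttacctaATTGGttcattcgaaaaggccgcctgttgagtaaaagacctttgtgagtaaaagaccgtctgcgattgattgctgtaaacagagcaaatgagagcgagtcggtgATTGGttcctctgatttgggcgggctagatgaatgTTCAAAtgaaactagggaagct
Over 300 bases (250 before to 50 after the start), the NF-Y motif was in 69.2% of 26 promoters of the cell cycle list and 37.3% of all promoters. The E2F motif was in 34.6% of that list and 1.99% of all, and the CHR motif in 38.5% and 12.4%. Among the promoters of 1685 genes called higher by at least 2-fold the shares were 37.9%, 2.61% and 11.9%. Among those of 916 genes called lower by at least 2-fold they were 43.4%, 0.764% and 15.1%. The NF-Y and CHR motifs were thus more frequent in the lower genes than in the higher ones.

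Of 16 immediate early genes, 11 were higher and 2 lower, with a median of 1.21; without the tumour of rat 1 or the liver of rat 3, 7 were higher. Without the tumour of rat 3, the liver of rat 1 or the liver of rat 2, 1 was lower. Myc, a driver of growth and ribosome synthesis, measured 10.00, 10.10 and 9.71 in the tumours and 7.18, 8.27 and 7.34 in the livers (2.34, SE 0.50), and the krueppel-like factors Klf4 (2.48, SE 0.25) and Klf6 (2.29, SE 0.44) were also higher. Of 11 hypoxia genes, 6 were higher and 1 lower. Egln3, an oxygen-sensing hydroxylase, measured 8.80, 8.70 and 8.76 in the tumours and 4.01, 4.02 and 4.19 in the livers (4.68, SE 0.64), and Car9 (2.11, SE 0.37), a carbonic anhydrase, was higher too. Vegfa, the vascular growth factor, was not called: it measured 9.28, 8.74 and 8.97 in the tumours and 9.56, 9.64 and 9.58 in the livers, with all tumours below all livers (-0.60, SE 0.36, adjusted p = 0.17). Of 13 glycolytic genes of broad expression, 10 were higher and 2 lower, led by Aldoa at 12.52, 12.60 and 12.41 in the tumours and 9.46, 9.56 and 9.61 in the livers (2.97, SE 0.31). The lower calls were not stable: none was left without the tumour of rat 1, the tumour of rat 2, the liver of rat 1 or the liver of rat 3, and 1 without either other array. Of 13 genes of amino acid uptake and serine synthesis, 6 were higher and 1 lower, led by Psat1 (2.46, SE 0.57). Of 15 genes of prostaglandin synthesis and its receptors, 4 were higher and 3 lower, or 2 higher without the tumour of rat 2. Their median of 0.15 turned to -0.15 when arrays were centred on all genes tested.

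Connective tissue genes rose together across the tumours. Of 16 collagen genes, 14 were higher and 1 lower, with a median of 3.22. Col1a1, the main fibrillar collagen chain, measured 13.81, 13.90 and 13.61 in the tumours and 7.24, 9.04 and 7.05 in the livers. The liver of rat 2 stood almost 2 log2 units above the other livers, and the difference was 6.00 (SE 0.64, adjusted p = 1.2e-06). Col1a2 (4.83, SE 0.42), Col15a1 (4.30, SE 0.57) and Col5a2 (3.95, SE 0.35) followed. Without the liver of rat 2 the counts stayed at 14 and 1, with a median of 3.38.

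Of 12 enzymes that modify collagen, 10 were higher and none lower, with a median of 2.30. Lox measured 11.53, 11.73 and 11.58 in the tumours and 5.62, 7.10 and 5.35 in the livers, and Plod2, which hydroxylates the lysines used for cross-links, measured 11.10, 11.07 and 10.95 in the tumours and 5.62, 5.56 and 5.34 in the livers; they differed by 5.59 (SE 0.55) and 5.54 (SE 0.46). Of 22 matricellular and elastic fibre genes, 18 were higher and none lower, with a median of 3.16. Fn1, fibronectin, which hepatocytes also secrete, was not called at 13.12, 12.82 and 12.84 in the tumours and 13.33, 13.19 and 13.25 in the livers.

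Of 18 genes of myofibroblasts and stellate cells, 15 were higher and 2 lower, with a median of 2.29. Acta2, the smooth muscle actin of myofibroblasts, measured 10.95, 11.04 and 10.88 in the tumours and 8.22, 8.13 and 7.03 in the livers (3.16, SE 0.38). Cdh11 (5.11, SE 0.55), a mesenchymal cadherin, Actg2 (4.99, SE 0.78), Tagln (4.26, SE 0.56) and Tpm2 (4.13, SE 0.34), all of contractile cells, were higher as well. A second probe set of Tpm2 differed by -0.38, and others of Cdh11 ran from -0.30 to 0.19. Reln, made by quiescent stellate cells, measured 8.49, 7.62 and 8.15 in the tumours and 8.86, 8.80 and 8.96 in the livers and was not called (-0.79, SE 0.47). All 12 genes of the actin cytoskeleton were higher, with a median of 2.00, led by Ezr (3.93, SE 0.26), which links actin to the membrane.

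Of 19 matrix proteases and inhibitors, 15 were higher and 1 lower, with a median of 1.61; none was lower without the tumour of rat 1, the tumour of rat 2 or the liver of rat 2. Mmp12, an elastase of macrophages, measured 11.03, 11.21 and 11.26 in the tumours and 5.47, 6.11 and 5.54 in the livers (5.46, SE 0.33). Timp1, an inhibitor of metalloproteinases, measured 12.63, 12.61 and 12.41 in the tumours and 7.50, 7.77 and 7.32 in the livers (5.02, SE 0.36). Mmp2 (3.97, SE 0.43), a gelatinase, and Plaur (3.94, SE 0.22), the receptor of urokinase, were higher; the second probe sets of both differed in the opposite direction, by -0.59 and -0.31. Of 19 genes of TGF-beta and activin signalling, 13 were higher and 2 lower, with a median of 1.64. Inhbb, a chain of activin B, measured 9.00, 9.21 and 8.73 in the tumours and 4.69, 5.07 and 4.78 in the livers (4.13, SE 0.71), and its antagonist Fst measured 8.78, 8.23 and 8.54 in the tumours and 5.83, 4.65 and 4.59 in the livers (3.49, SE 0.68). The TGF-beta target Tgfbi was not called (0.33, SE 0.40).

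The promoters of Mmp12 and Plaur hold the AP-1 motif TGANTCA, bound by Fos and Jun proteins. Mmp12 lies at chr8:12866402-12866651 on the plus strand and Plaur at chr1:89181113-89181362 on the plus strand.
Mmp12: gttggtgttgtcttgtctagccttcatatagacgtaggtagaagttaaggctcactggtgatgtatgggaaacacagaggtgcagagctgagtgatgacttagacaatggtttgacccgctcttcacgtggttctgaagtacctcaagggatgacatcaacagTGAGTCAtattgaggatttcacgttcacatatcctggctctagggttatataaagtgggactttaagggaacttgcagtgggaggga
Plaur: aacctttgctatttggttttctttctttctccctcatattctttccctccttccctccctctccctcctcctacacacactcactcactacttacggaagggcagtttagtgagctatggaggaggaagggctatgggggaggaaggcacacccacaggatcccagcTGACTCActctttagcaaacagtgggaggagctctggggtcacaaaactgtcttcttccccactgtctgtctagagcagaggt
The AP-1 motif was in 7.0% of the promoters of genes called higher by at least 2-fold, 5.9% of those called lower and 5.54% of all.

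Of 14 blood vessel genes, 8 were higher and none lower, with a median of 1.08. Sox17, an endothelial transcription factor that is also found in duct progenitors, measured 11.05, 11.44 and 11.33 in the tumours and 5.51, 5.84 and 5.40 in the livers (5.69, SE 0.45), with other probe sets from -0.05 to 3.06. Emcn (2.13, SE 0.55) and Tie1 (1.57, SE 0.30), of vessel walls, were higher. Kdr, the main Vegfa receptor, measured 8.98, 8.78 and 8.70 in the tumours and 9.35, 9.75 and 9.77 in the livers and was not called without a block for the rat (-0.80, SE 0.63, adjusted p = 0.29); with the rat as a block its adjusted p was 0.009. Of 8 genes of the liver sinusoid endothelium, 5 were lower and 1 higher. Stab2, a scavenger receptor of these cells, measured 6.95, 5.93 and 6.48 in the tumours and 8.46, 8.87 and 8.96 in the livers (-2.31, SE 0.33). Fcgr2b, shared with macrophages, was the higher member, at 11.30, 11.41 and 11.45 in the tumours and 9.67, 9.81 and 9.90 in the livers (1.59, SE 0.19).

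Genes of recruited macrophages and of Kupffer cells, the resident macrophages of the liver sinusoid, went in opposite directions. Of 19 genes of recruited macrophages, 16 were higher and none lower, with a median of 1.89. Spp1, which tumour epithelium also makes, measured 11.75, 11.63 and 11.84 in the tumours and 6.69, 6.59 and 6.78 in the livers (5.05, SE 0.44). Lyz2, lysozyme, measured 13.71, 13.89 and 13.87 in the tumours and 10.65, 10.50 and 10.80 in the livers (3.17, SE 0.17), and Gpnmb, of phagocytes that take up lipid, measured 11.86, 11.98 and 12.07 in the tumours and 8.78, 8.89 and 8.94 in the livers (3.11, SE 0.22).

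Of 5 Kupffer cell genes, 4 were lower and 1 higher, with a median of -1.59. Clec4f, a lectin of Kupffer cells, measured 8.71, 7.15 and 8.42 in the tumours and 10.27, 10.18 and 10.47 in the livers (-2.21, SE 0.52). The tumour of rat 2 was the lowest, and without it 1 of the 5 genes was called lower; without the liver of rat 3, 2 were. Folr2 was the higher member, at 9.07, 9.35 and 9.29 in the tumours and 7.63, 7.71 and 7.46 in the livers (1.63, SE 0.26).

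All 9 genes of antigen presentation by MHC class II were higher, with a median of 2.73. RT1-Da, an alpha chain, measured 13.25, 13.56 and 13.37 in the tumours and 10.21, 10.45 and 10.32 in the livers (3.07, SE 0.28). RT1-Bb (3.17, SE 0.26), RT1-Db1 (2.96, SE 0.30) and RT1-DMa (2.96, SE 0.37) were of like size. The summed linear level of the list was 628% to 658% of the level in the matching liver. A second probe set of RT1-Bb differed by -0.03.

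Of 10 genes of neutrophils and interleukin 1, 7 were higher and none lower, with a median of 2.49. Csf3r, the receptor of the granulocyte growth factor, measured 8.77, 9.08 and 8.79 in the tumours and 5.40, 5.55 and 4.62 in the livers (3.69, SE 0.26). S100a8, a granule protein, measured 10.22, 10.22 and 9.77 in the tumours and 8.19, 7.10 and 5.31 in the livers (3.21, SE 0.68), and the livers were spread over almost 3 log2 units. Of 26 chemokines, 10 were higher and 4 lower, with a median of 1.03; 2 were lower without the tumour of rat 1, the tumour of rat 2 or the liver of rat 3. Ccl2, which attracts monocytes, measured 10.40, 10.74 and 10.66 in the tumours and 5.26, 5.55 and 4.88 in the livers (5.37, SE 0.57). Cxcl6 (4.74, SE 0.33), which attracts neutrophils, Ccl7 (3.84, SE 0.68) and Cxcl16 (3.56, SE 0.25) were higher too.

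Lymphocyte genes went in both directions. Of 21 T and NK cell genes, 8 were higher and 3 lower, and 9 of the 21 lay under the lowest array median in both tissues. Without the tumour of rat 2 or the liver of rat 3, 5 were higher. The median of 0.22 turned to -0.09 when arrays were centred on all genes tested. Cd8a, of cytotoxic T cells, measured 6.89, 6.88 and 6.55 in the tumours and 5.30, 5.26 and 5.21 in the livers (1.52, SE 0.28, with other probe sets from -0.08 to 1.58), and Lck measured 7.21, 7.52 and 7.39 in the tumours and 6.47, 6.28 and 6.46 in the livers (0.97, SE 0.14). Gzma, a granzyme of NK and cytotoxic cells, was lower at 4.28, 4.10 and 4.35 in the tumours and 5.51, 5.62 and 5.85 in the livers (-1.41, SE 0.24), with the tumours under the array medians. Of 8 B and plasma cell genes, 3 were lower and none higher, and 6 of the 8 lay under the array median in both tissues. Of 8 dendritic cell genes, 4 were higher, led by Fscn1 (2.26, SE 0.48), and 4 of the 8 lay under the lowest array median in both tissues. Of 17 interferon response genes, 2 were higher and 5 lower, with a median of -0.28. Leaving out any 1 of the 6 day 10 arrays left 2 or 3 of them lower. Gbp2, a guanylate-binding protein, measured 9.98, 10.30 and 9.95 in the tumours and 7.66, 7.09 and 8.10 in the livers (2.46, SE 0.32), whereas Mx2 measured 6.12, 5.95 and 6.30 in the tumours and 7.32, 6.71 and 7.87 in the livers (-1.18, SE 0.31).

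Hepatocyte genes fell across most of their functions, but most were still measured far above the array medians in the tumour samples. All 7 markers of hepatocytes lay above 10 in each tumour. Of 14 hepatocyte transcription factors, 13 were lower and none higher, with a median of -1.96. Nr1i3, the receptor CAR, which controls drug metabolism, measured 5.16, 4.77 and 5.48 in the tumours and 6.75, 7.66 and 8.71 in the livers (-2.57, SE 0.35). Nr1h4 (-2.29, SE 0.32), the bile acid receptor FXR, Nr1i2 (-2.10, SE 0.16), the receptor PXR, and Foxa2 (-2.08, SE 0.33) were lower as well. Cebpb, which responds to inflammation, measured 11.29, 11.21 and 11.31 in the tumours and 11.12, 11.30 and 11.67 in the livers and was not called (-0.09, SE 0.27).

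Of 19 genes of bile acid synthesis and transport, 17 were lower and 1 higher, with a median of -2.35. Abcc2, the canalicular export pump of conjugated bilirubin, measured 7.93, 6.48 and 7.71 in the tumours and 10.34, 10.84 and 10.87 in the livers (-3.31, SE 0.60). Cyp8b1, which makes cholic acid, measured 7.21, 6.59 and 7.84 in the tumours and 10.63, 10.60 and 10.04 in the livers (-3.21, SE 0.95), and the uptake carrier Slco1a1 measured 6.83, 5.68 and 6.60 in the tumours and 9.49, 9.67 and 9.82 in the livers (-3.29, SE 0.66). In Abcc2 and Slco1a1 the tumour of rat 2 was the lowest of the tumours. Cyp7b1 was not called without a block for the rat (0.42, SE 0.20, adjusted p = 0.08) and had an adjusted p of 0.023 with it.

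Of 29 genes of the urea cycle and amino acid breakdown, 28 were lower, with a median of -2.46. Bhmt, which remethylates homocysteine, measured 7.91, 7.28 and 8.68 in the tumours and 10.35, 11.69 and 11.81 in the livers (-3.33, SE 0.85), and Tat, tyrosine aminotransferase, was lower by a like amount (-3.30, SE 0.77). The uncalled gene was Cps1, the entry enzyme of the urea cycle. It measured 11.65, 10.76 and 11.71 in the tumours and 13.20, 13.27 and 13.25 in the livers, a difference of -1.87 (SE 1.13) and an adjusted p of 0.17, although no array of one tissue overlapped the other. In the fit of the 6 day 10 arrays alone its SE was 0.23 and its adjusted p 0.00015, since that fit takes the spread from day 10 only. This fit called 4906 genes higher (34.5%) and 4357 lower (30.6%).

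All 9 genes of liver glucose metabolism were lower, with a median of -2.61. Pklr, liver pyruvate kinase, measured 8.73, 8.39 and 9.24 in the tumours and 11.57, 11.69 and 11.89 in the livers (-2.93, SE 0.95), and Gys2, liver glycogen synthase, measured 6.19, 5.55 and 6.41 in the tumours and 9.05, 8.87 and 8.98 in the livers (-2.92, SE 0.58). Of 16 genes of fatty acid oxidation, 12 were lower (median -1.54), led by the peroxisomal enzyme Ehhadh (-3.17, SE 0.72). Of 15 genes of fatty acid synthesis, 12 were lower (median -1.76). Gpam, which starts triglyceride synthesis, measured 5.94, 5.51 and 5.93 in the tumours and 8.72, 8.80 and 8.42 in the livers (-2.86, SE 0.33). Of 15 cholesterol genes, 7 were lower and 1 higher (median -0.56), with Nsdhl (-2.01, SE 0.44) the largest decrease. None was higher without the tumour of rat 1 or rat 2 or the liver of rat 2 or rat 3.

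Of 15 peroxisome genes, 13 were lower, with a median of -1.12. Hao1, glycolate oxidase, measured 10.44, 9.27 and 10.32 in the tumours and 12.19, 12.16 and 12.11 in the livers and was not called without a block for the rat (-2.15, SE 0.96, adjusted p = 0.065); with it the adjusted p was 0.02. Of 25 subunits of the mitochondrial respiratory chain, which cells of every kind carry, 20 were lower and none higher, but by little: the median was -0.42. Sdha, of complex II, had the largest difference, at 9.92, 9.69 and 9.86 in the tumours and 11.10, 11.06 and 11.26 in the livers (-1.32, SE 0.16), and Cox6c measured 12.01, 12.12 and 12.13 in the tumours and 12.20, 12.09 and 12.03 in the livers (-0.02, SE 0.09).

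Of 20 cytochrome P450 genes, 11 were lower and 1 higher, with a median of -1.97. After Cyp4a1 came Cyp1a2, of drug and caffeine metabolism, at 8.21, 7.63 and 8.72 in the tumours and 11.28, 11.21 and 11.93 in the livers (-3.29, SE 0.80). Of 18 conjugating enzymes, 12 were lower and 1 higher, with a median of -2.32. Sult2a6, a sulfotransferase, measured 6.13, 5.09 and 5.74 in the tumours and 8.77, 8.89 and 8.91 in the livers (-3.20, SE 0.62). The higher member was Gstp1, the glutathione transferase of ducts and of preneoplastic liver cells, at 12.24, 12.38 and 12.16 in the tumours and 8.06, 8.50 and 8.45 in the livers (3.92, SE 0.17). Of 13 antioxidant genes under Nrf2, 6 were higher and 5 lower. Gpx2, an epithelial glutathione peroxidase, measured 11.29, 11.21 and 11.16 in the tumours and 6.73, 5.82 and 6.10 in the livers (5.00, SE 0.59), and Akr1b8 (3.40, SE 0.23) was higher too. Ephx1, microsomal epoxide hydrolase, measured 9.73, 7.96 and 8.92 in the tumours and 11.47, 11.27 and 11.59 in the livers (-2.57, SE 0.60). The median of this list was 0.24 and turned to -0.06 when arrays were centred on all genes tested.

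Few plasma protein genes were called in the fit over all groups. Of 18 secreted proteins of hepatocytes, 3 were lower and none higher, with a median of -1.20. All tumours nevertheless lay below all livers in 17 of the 18, against 36.5% of all genes tested. In the fit of the 6 day 10 arrays alone, 16 were lower. Itih1, an inter-alpha-trypsin inhibitor chain, measured 11.05, 9.63 and 10.61 in the tumours and 12.59, 12.70 and 12.78 in the livers (-2.26, SE 0.66), and Igfals, the carrier of IGF complexes, measured 8.24, 6.88 and 7.51 in the tumours and 10.39, 10.39 and 10.36 in the livers (-2.83, SE 0.70). Of 22 complement and coagulation genes, 8 were lower (median -1.86), and all 22 were in the 6-array fit. F12, coagulation factor XII, measured 10.10, 8.58 and 9.69 in the tumours and 11.70, 11.87 and 11.95 in the livers (-2.38, SE 0.55), and Serpinc1, antithrombin, measured 12.59, 11.51 and 12.30 in the tumours and 13.48, 13.48 and 13.46 in the livers and was not called in the fit over all groups (-1.34, SE 0.87, adjusted p = 0.19). Without the tumour of rat 2, 4 of the 22 were called lower.

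Slc10a1, the sodium-dependent bile acid carrier NTCP, measured 10.75, 9.37 and 10.43 in the tumours and 12.64, 12.72 and 12.91 in the livers (-2.57, SE 0.95); Itih1 is given in the paragraph on plasma proteins. The motif GTTAAT of HNF1, a factor of liver genes, is in capitals. Slc10a1 lies at chr6:106357945-106358194 on the minus strand and Itih1 at chr16:6142814-6143063 on the minus strand.
Slc10a1: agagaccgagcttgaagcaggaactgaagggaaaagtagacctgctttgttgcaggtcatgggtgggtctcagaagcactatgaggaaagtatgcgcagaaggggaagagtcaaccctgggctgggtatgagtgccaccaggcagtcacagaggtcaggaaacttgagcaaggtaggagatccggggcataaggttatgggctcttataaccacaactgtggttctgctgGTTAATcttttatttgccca
Itih1: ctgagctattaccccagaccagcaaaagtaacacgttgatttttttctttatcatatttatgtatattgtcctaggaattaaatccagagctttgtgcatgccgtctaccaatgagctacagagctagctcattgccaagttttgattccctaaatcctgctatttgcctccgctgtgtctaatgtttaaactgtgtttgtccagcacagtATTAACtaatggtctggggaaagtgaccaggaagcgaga
This motif was in 6.99% of 916 promoters of genes called lower by at least 2-fold, 4.09% of those called higher and 4.79% of all promoters. The HNF4 core CAAAGTCC was in 3.6% of the lower, 1.36% of the higher and 1.38% of all.

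Of 15 acute phase genes, 2 were higher and none lower, with a median of -0.32; without the tumour or the liver of rat 1, 1 was higher. In the 6-array fit, 3 were higher and 6 lower. A2m, alpha-2-macroglobulin, the main acute phase protein of the rat, measured 12.10, 11.88 and 12.49 in the tumours and 8.31, 8.46 and 6.85 in the livers, a difference of 4.29 (SE 0.64, adjusted p = 3.2e-05). Hp, haptoglobin, measured 14.16, 13.71 and 14.17 in the tumours and 14.23, 14.16 and 14.18 in the livers and was not called. Of 15 genes of the growth hormone and IGF axis, 3 were higher and 6 lower, with a median of -0.47. Without any 1 of the day 10 arrays other than the liver of rat 3, 2 or 3 were lower. Igfbp5, given next, ran against this median. Igfbp5, an IGF carrier made by stromal cells, measured 9.78, 9.62 and 8.54 in the tumours and 5.20, 5.50 and 5.29 in the livers (3.98, SE 0.69; other probe sets from -0.18 to 1.11), whereas Igf1 was not called (-0.92, SE 0.58, adjusted p = 0.18). Of 13 circadian clock genes, 7 were lower and none higher. Npas2 (-2.04, SE 0.32) and Hlf (-1.69, SE 0.41) fell most, and Bmal1 measured 6.67, 6.79 and 6.71 in the tumours and 7.80, 8.01 and 7.53 in the livers (-1.06, SE 0.21).

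Hepatocyte transcripts were not at the same level in the 3 tumours. The 17 liver lists with a median difference under 0 include some not confined to hepatocytes, such as sinusoid endothelium, the circadian clock and the respiratory chain. In 15 of the 17, the tumour of rat 2 had the lowest mean level of the tumours. Its summed linear level of complement and coagulation genes was 22.9% of that in its own liver, against 45.4% and 39.3% in rats 1 and 3. For the urea cycle and amino acid list these shares were 14.0%, 28.9% and 24.5%. Its liver did not stand apart in these lists, with a mean level of complement and coagulation genes 0.11 below that of the other livers. The tumour of rat 2 was the highest in some stroma lists, with mean levels 0.38 above the others for collagens and for myofibroblast genes and 0.45 for matricellular genes. Its liver stood as far above the other livers in the collagen and matricellular lists, by 0.45 and 0.47. How far the hepatocyte content of the pieces entered the differences between tumours and livers was not tested.

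Transcripts of the pancreas and of skeletal muscle were high in single pieces. The mean level of 13 pancreatic acinar genes was 6.21 in the tumour of rat 2, against 5.15 and 5.08 in the other tumours and 5.35 to 5.41 in the livers; 6 of the 13 lay above the array median there, against 1 in each other tumour. Amy2a3, pancreatic amylase, measured 4.57, 8.28 and 3.88 in the tumours and 4.10, 3.84 and 4.09 in the livers, and Ctrb1, chymotrypsinogen, 4.54, 7.73 and 4.63 in the tumours and 4.45, 4.51 and 4.54 in the livers. The summed level of the list was 1470 in the tumour of rat 2, 711 to 714 in the other tumours and 1154 to 1257 in the livers. Acta1, the actin of skeletal muscle, measured 8.03, 5.12 and 4.59 in the tumours and 4.25, 9.88 and 4.35 in the livers, with the liver of rat 2 and the tumour of rat 1 high. Of the 11 muscle genes 2 were higher and 2 lower; without the tumour of rat 2 none was higher and 1 lower, and without the liver of rat 2, 2 were higher and none lower. Without the liver of rat 1 or of rat 3, 1 was higher, and without the tumour of rat 1, the tumour of rat 3 or the liver of rat 3, 1 was lower. Their mean level was 7.06 in the liver of rat 2, against 5.97 and 6.07 in the other livers. The part of these transcripts in other results was not tested.

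**Figure D4:**
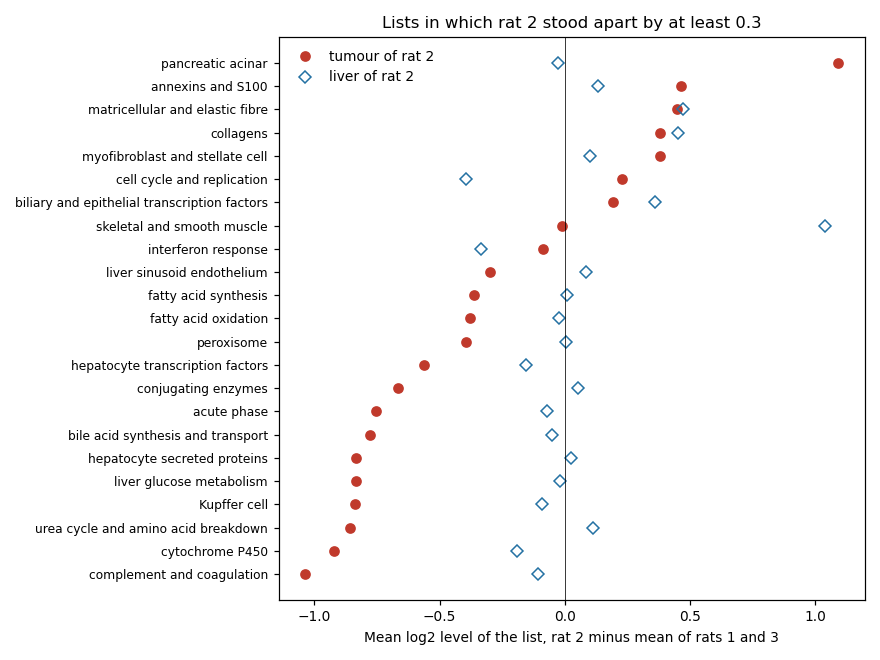
Mean log2 level of a gene list in the tumour (red) and liver (blue) of rat 2, minus the mean of rats 1 and 3, for the lists in which either differed by at least 0.3. The tumour of rat 2 lies lowest in complement and coagulation (-1.04) and cytochrome P450 (-0.92) and highest in pancreatic acinar genes (1.09), whereas its liver departs most in muscle genes (1.04).

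Genes of other tissues that a tumour piece could hold were counted in the same way. Of 7 genes of intestinal epithelium 1, Cdx2, was higher (0.72), and of 6 mesothelial genes 2 were higher and 1 lower. Of 7 nerve genes none was higher and 4 lower. In both tissues 6 of the 7 nerve genes lay under the lowest array median, as did 3 intestinal and 3 mesothelial genes. Of 8 adipocyte genes 3 were higher and 4 lower, and 2 were lower without the tumour of rat 2 or the liver of rat 1. Lpl (2.51, SE 0.49) and Fabp4 (2.76, SE 0.57), which macrophages and vessels also make, were higher. Of 6 red blood cell genes 5 were lower, or 3 without the tumour of rat 1, with a summed level of 2909 to 4851 in the tumours and 5360 to 5816 in the livers.

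Whether the difference between tumour and liver was the same later was tested as a difference of differences. Against day 15, no gene was called with limma; 978 genes had an unadjusted p under 0.05, and the smallest adjusted p was 0.5. Against day 25, 208 genes were called (1.46%), 155 with a more positive difference at day 10 and 53 with a more negative one; 2506 had an unadjusted p under 0.05. In 180 of the 208 the liver means moved more between the days than the tumour means did. The rats of the days were different animals. The description of the day 25 liver samples gives another day than their titles; the titles were followed.

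The count of 208 depended on single arrays. Leaving out 1 array of day 10 gave 55, 33 and 30 without the tumours of rats 1, 2 and 3, and 93, 38 and 49 without their livers. Leaving out 1 array of day 25 gave 40, 63 and 301 genes without the tumours of replicates 1, 2 and 3. Without the livers of these replicates it gave 146, 57 and 402. Of the 16 genes named for this comparison, A2m, Il1r2, Nox4 and Mab21l3 were called in all 12 such fits.

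At day 25 A2m measured 9.92, 12.88 and 12.86 in the tumours and 12.80, 13.34 and 13.24 in the livers, a difference of -1.24 (SE 0.64) against 4.29 at day 10. The difference of differences was 5.53 (SE 0.90, adjusted p = 0.012), and the livers had gone from a mean of 7.87 to 13.13. Il1r2, the decoy receptor of interleukin 1, measured 9.01, 9.48 and 9.48 in the tumours and 5.08, 5.16 and 4.98 in the livers at day 10. At day 25 it measured 10.98, 10.07 and 9.69 in the tumours and 8.71, 9.09 and 8.44 in the livers, a difference of differences of 2.75 (SE 0.47, adjusted p = 0.012).

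Nox4, an NADPH oxidase, measured 4.46, 4.47 and 4.52 in the tumours and 6.94, 7.04 and 7.20 in the livers at day 10 and 4.37, 4.06 and 4.54 in the tumours and 4.16, 4.15 and 4.64 in the livers at day 25. Here the livers lay above the tumours at day 10 and overlapped them at day 25, and the difference of differences was -2.59 (SE 0.43, adjusted p = 0.012). Mab21l3 was not called at day 10, at 8.40, 8.05 and 7.81 in the tumours and 7.76, 7.70 and 7.54 in the livers, and measured 9.34, 9.45 and 8.74 in the tumours and 7.16, 6.90 and 6.67 in the livers at day 25. Its difference of differences was -1.85 (SE 0.29, adjusted p = 0.012).

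**Figure D5:**
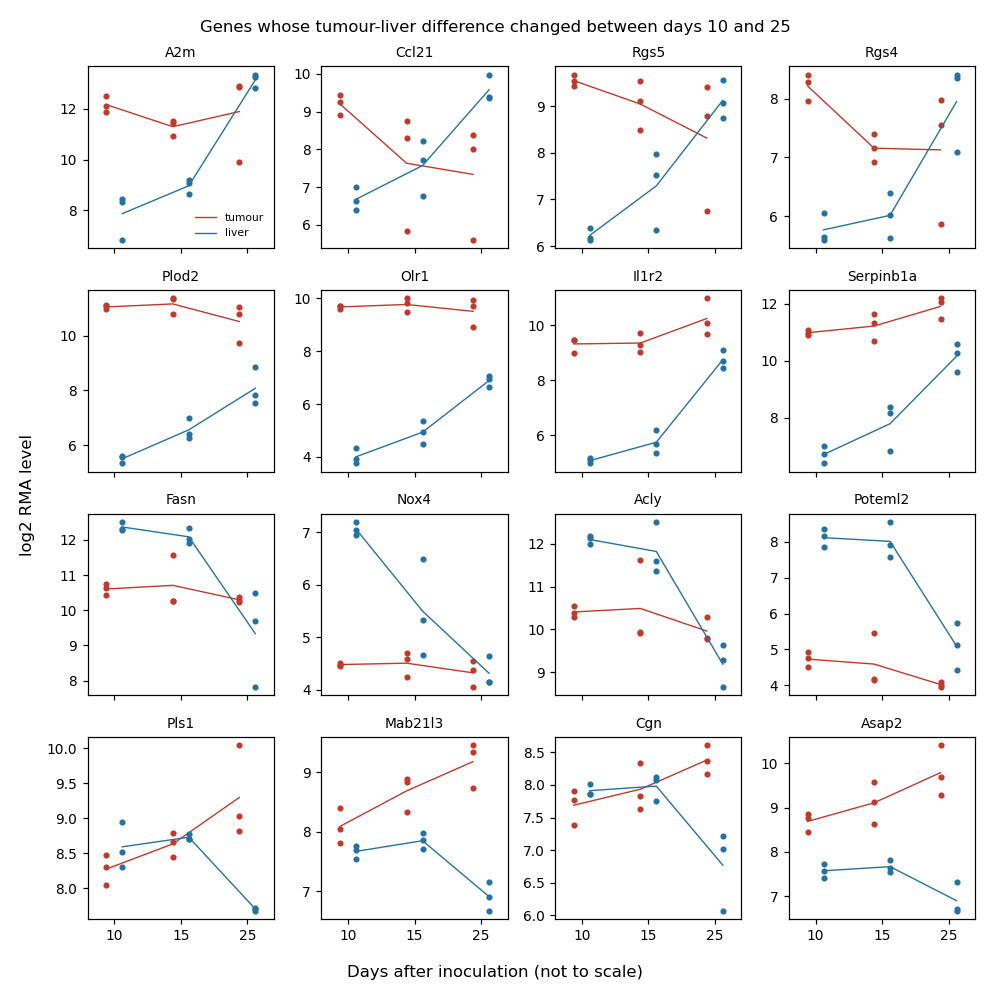
Log2 RMA levels of the 16 genes with the largest difference of differences between days 10 and 25 among called genes (8 in each direction), by day after inoculation on an axis that is not to scale; points are arrays, lines join the means of 3 tumours (red) and 3 livers (blue). In the upper 8 panels the livers rise towards day 25, as in A2m from a mean of 7.87 to 13.13, and in the lower 8 panels they fall, as in Nox4 from 7.06 to 4.32.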

How the data were processed

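The deposited table holds log2 expression per probe set of an Affymetrix rat array for 21 samples, made by the authors with RMA, per the submitters' processing notes; the sources used here do not give a version. RMA subtracts background, aligns the distributions of all arrays and summarises probes, so a shift of most transcripts in one direction would be partly removed, and levels near either end are compressed. Arrays have no read depth; 3 arrays a group limit the precision. Total RNA was taken from snap-frozen tissue, per the labels' protocols. The labels give no scan date or batch.

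Of 31099 probe sets (57 controls), 20832 had 1 gene symbol, 436 had several and 9831 were not named here; probe sets with several or no symbols were left out. Where several probe sets named a gene, the one brightest on average across the 21 arrays stood for it (14218 genes, 4526 with more than 1 probe set). Of 1052 genes called at 2-fold or more that had other probe sets, 226 had one with the opposite sign.

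Tests used limma 3.58.1 in R 4.3.3: 7 group means over 21 arrays, 1 spread per gene, Benjamini-Hochberg adjustment over 14218 genes, a call at an adjusted p under 0.05. Alternatives were the rat as a block, the 6 day 10 arrays alone, other scalings, the mean over probe sets, a filter on dim genes, another prior and leaving out 1 array at a time. Fits were tested on simulated data. The labels say that tumour and liver with the same number came from the same rat; the correlations of their deviations from the group means were 0.040, 0.066 and 0.115. A fit with the rat as a block is given for some of the genes whose call it changed. It also changed the counts of some lists, which are not given.

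The text names up to 12 genes a direction that were called, did not overlap and changed most, leaving out provisional symbols, then the same among genes above 6.02 in both means, up to 4 called members and the most abundant uncalled member of each list, markers, the most variable genes, up to 8 genes in each direction for each test between days, and Erbb2, Alb and Krt19. The arrays, lists and rules were chosen with earlier results of these data known. Python 3.11.15 and pandas 2.3.3 were used for tables.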

Additional observations from a re-analysis of the deposited data

Results flagged for a closer look

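The test of the difference of differences picked out 208 genes whose tumour minus liver difference was not the same at day 10 and day 25, and 16 of them were named. With a more positive difference at day 10 these were A2m (5.53, adjusted p = 0.012), Ccl21 (4.77, 0.041), a chemokine of lymphoid tissue, Rgs5 (4.13, 0.039), a pericyte gene, and Rgs4 (3.27, 0.025). Plod2 (3.10, 0.031), Olr1 (3.05, 0.019), a receptor of oxidised lipoprotein, Il1r2 (2.75, 0.012) and Serpinb1a (2.52, 0.025), an inhibitor of neutrophil proteases, followed. With a more negative difference at day 10 they were Fasn (-2.72, 0.047), fatty acid synthase, Nox4 (-2.59, 0.012), Acly (-2.47, 0.039), which supplies acetyl-CoA for lipid synthesis, and Poteml2 (-2.32, 0.031). Pls1 (-1.91, 0.03), Mab21l3 (-1.85, 0.012), Cgn (-1.84, 0.022), a tight junction protein, and Asap2 (-1.78, 0.05) completed them.

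In fits that left out 1 array of day 10 or day 25, A2m, Il1r2, Nox4 and Mab21l3 were called in 12 of 12, Olr1 in 9 and Cgn in 8. Serpinb1a was called in 6, Rgs4 in 5, Pls1 in 4, Rgs5 and Plod2 in 3, and Ccl21, Fasn, Acly, Poteml2 and Asap2 in 2 of them. Fasn measured 10.63, 10.43 and 10.75 in the tumours and 12.31, 12.27 and 12.51 in the livers at day 10, and 10.37, 10.22 and 10.30 in the tumours and 7.82, 9.70 and 10.49 in the livers at day 25. Rgs5 measured 9.43, 9.68 and 9.54 in the tumours and 6.14, 6.17 and 6.38 in the livers at day 10, and 6.75, 8.79 and 9.41 in the tumours and 8.74, 9.56 and 9.08 in the livers at day 25, where 1 tumour lay well below the others. The cause of these differences was not tested.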

How the results depend on the processing

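The count of genes called between tumour and liver at day 10 was 8306. It ran from 6766 without dim genes to 9955 with arrays centred on the median of all genes tested. That centring was added after the data were seen. The fit without dim genes tested fewer genes: it left out the 3814 whose means lay under the lowest array median in both tissues. Leaving out 1 array gave 6916 to 7739. With the rat as a replicate block, 8403 (8864 over the 6 day 10 arrays alone) genes were called, and of the 334 named genes the block ended the calls of Actn2 (adjusted p = 0.052), Fetub (0.059) and Hey1 (0.063) and gave 10 calls; it changed no other call of a named gene. Of 260 called named genes, 225 kept their call in every alternative, and none of the 334 reversed a call. Against day 15 the count was 0 in every fit. The count of 208 against day 25 ran from 148 to 243 (243 with the replicate block) over other settings and from 30 to 402 without 1 array. Leaving out arrays of day 25 was chosen after the data were seen. The cause was not tested. With arrays centred on all genes tested, 29.2% of called genes were higher in the tumours against 52.0%. The median difference of all genes was then -0.34 against -0.03. Without dim genes 59.9% were higher and the median was 0.14. Medians of the lists of ErbB, Nrf2, T and NK cell, mucin, prostaglandin, acinar and mesothelial genes changed sign in that centring. Signal near background limits the size of large differences.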

Other observations

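Some genes differed widely between livers of the same day. Onecut1, a transcription factor of liver and duct development, measured 8.38, 11.17 and 7.03 in the livers and 6.09, 7.30 and 6.01 in the tumours. The groups overlapped, although the gene was called lower in the tumours (-2.40). Sds, serine dehydratase, which rises with fasting and dietary protein, measured 7.43, 10.00 and 9.45 in the livers. Pbsn measured 5.59, 8.37 and 7.82 in the livers and 3.93, 4.12 and 4.05 in the tumours. Fos, an immediate early gene, measured 7.01, 7.47 and 4.80 in the livers and 8.76, 8.35 and 7.07 in the tumours. Rgs16, a regulator of G protein signalling that follows feeding in the liver, measured 10.28, 7.49 and 9.45 in the livers and 9.28, 8.16 and 9.30 in the tumours. Hamp, hepcidin, the hormone of iron balance, measured 12.04, 9.99 and 11.52 in the tumours and 11.60, 10.22 and 10.38 in the livers. Reg3a, made by injured pancreas and gut, measured 4.25, 7.00 and 4.44 in the tumours and 4.23, 4.26 and 4.24 in the livers. These genes were chosen for their spread, so no test of it is given.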
